A study of Mus musculus with 18 samples.

Results

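Transcripts of 5 Mas-related G protein-coupled receptors (Mrgprb1, Mrgprb2, Mrgprx1, Mrgprx2 and Mrgprf) were examined in 18 mouse tumors, out of 20878 genes measured by RNA-seq. Mrgprb1, Mrgprb2, Mrgprx1 and Mrgprx2 were chosen by their place among the genes that the study drew as lower with Atrx shRNA in Balb/c hosts, so their levels in that contrast are a description, and no test was made on it. Mrgprf was added as a further detected receptor of the family with the values of all tumors in view, so its values are not independent evidence either. The tumors grew under the skin from K7M2, a poorly differentiated osteosarcoma line that arose in Balb/c mice. The cells had been transduced with a lentivirus carrying a control shRNA (ATRX-CT) or an shRNA against Atrx, which encodes a chromatin remodeler (ATRX-KD), and were populations of transduced cells of 1 line. Injections of 500000 cells were given to female mice of 6 to 8 weeks, either Balb/c (Balb/cJ), which have all lymphocyte classes, or NSG (the strain NOD.Cg-Prkdc scid Il2rg tm1Wjl/SzJ), which lack T, B and NK cells but keep myeloid and mast cells. There were 4 tumors each for Balb/c ATRX-CT (mice 41, 43, 44 and 45) and Balb/c ATRX-KD (mice 56, 58, 59 and 60), and 5 each for NSG ATRX-CT (mice 1 to 5) and NSG ATRX-KD (mice 26 to 30). Each tumor came from its own mouse. Mice had been housed 5 to a cage and whole cages were given 1 kind of cells, so cage and shRNA cannot be told apart. The hosts differ in strain background as well as in lymphocytes, and these cannot be told apart either.

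Mas-related receptors are G protein-coupled receptors of the skin, best known from itch and pain neurons and from connective tissue mast cells. Mrgprb2 is the mouse counterpart of human MRGPRX2, through which basic peptides and many drugs make mast cells degranulate without IgE. Mrgprb1 and Mrgprx2 (also called Mrgprb10) are its close relatives in the same gene cluster, Mrgprx1 (also called MrgC11) is known as a receptor for itch peptides in sensory neurons, and Mrgprf is an orphan receptor described mainly outside neurons.

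All 5 genes lie on chromosome 7 of mm10 in the deposited annotation, with 1 transcript each. Mrgprx1 (48020971 to 48027597), Mrgprb1 (48444113 to 48456342), Mrgprx2 (48478619 to 48499270) and Mrgprb2 (48550965 to 48558086) lie within one cluster on the minus strand with 2 exons each. Mrgprf (145300909 to 145309557, plus strand, 3 exons) lies far from them. RefSeq promoter sequences, 250 bases before to 50 bases after the transcript start on GRCm38.p6 (mm10), were at hand for 4 of the 5 members and are shown because these 4 genes moved together in Balb/c tumors. They run 5′ to 3′ on the minus strand, at chr7:48456293-48456592 for Mrgprb1, chr7:48499221-48499520 for Mrgprx2, chr7:48558037-48558336 for Mrgprb2 and chr7:48027548-48027847 for Mrgprx1. Capitals mark AGATAA or TGATAA, the letters that GATA factors of mast cells prefer, TGTGGT, a RUNX core, and CACGTG or CATGTG, the E-boxes preferred by MITF, read on either strand.
Mrgprb1: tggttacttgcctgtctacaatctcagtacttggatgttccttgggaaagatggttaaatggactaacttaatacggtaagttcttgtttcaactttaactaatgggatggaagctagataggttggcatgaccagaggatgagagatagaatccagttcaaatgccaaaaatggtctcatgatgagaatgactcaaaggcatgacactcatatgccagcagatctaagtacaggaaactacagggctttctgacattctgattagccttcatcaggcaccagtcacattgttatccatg
Mrgprx2: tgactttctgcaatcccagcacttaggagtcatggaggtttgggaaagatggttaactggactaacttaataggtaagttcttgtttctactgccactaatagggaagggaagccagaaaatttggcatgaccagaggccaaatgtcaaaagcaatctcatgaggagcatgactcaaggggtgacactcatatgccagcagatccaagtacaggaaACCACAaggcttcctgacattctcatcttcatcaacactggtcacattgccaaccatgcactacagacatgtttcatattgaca
Mrgprb2: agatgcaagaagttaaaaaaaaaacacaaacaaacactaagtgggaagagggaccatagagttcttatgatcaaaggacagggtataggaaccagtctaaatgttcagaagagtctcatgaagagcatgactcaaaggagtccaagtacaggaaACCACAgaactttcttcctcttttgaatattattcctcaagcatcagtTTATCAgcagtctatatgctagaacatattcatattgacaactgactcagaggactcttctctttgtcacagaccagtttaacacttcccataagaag
Mrgprx1: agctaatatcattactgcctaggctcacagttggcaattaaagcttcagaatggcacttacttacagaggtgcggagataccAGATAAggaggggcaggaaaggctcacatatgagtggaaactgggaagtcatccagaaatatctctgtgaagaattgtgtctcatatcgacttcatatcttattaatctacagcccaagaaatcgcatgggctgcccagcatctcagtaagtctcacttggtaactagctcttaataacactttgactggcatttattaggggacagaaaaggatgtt

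Mrgprb1 held none of these motifs. Mrgprx2 and Mrgprb2 each held TGTGGT, at positions -34 and -96 from the start, as its reverse complement. Mrgprb2 also held TGATAA at position -48, and Mrgprx1 held AGATAA at position -168. Among all 32851 promoters of the same length, 11.2% held AGATAA, 9.05% TGATAA, 16.8% TGTGGT, 7.15% CACGTG and 14.2% CATGTG. The general E-box CANNTG, which includes both MITF forms, was in all 4 promoters and in 72.3% of all promoters. The Mrgprb1 and Mrgprx2 promoters aligned over their whole length, with 228 identical letters in 301 aligned positions (75.7%), whereas the longest local alignment of any other pair covered 73 positions. A match describes letters in this window and is not a measurement of binding.

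The members can be told apart by their reads. The Mrgprb1 and Mrgprx2 transcripts, the most alike of the 10 pairs over a long stretch, were identical at 80.0% of 2434 aligned positions. No window of 75 bases, the read length, was shared between any of the 5 transcripts, and the windows shared with other genes were 8 of the 1106 of Mrgprx1, all with the gene Gm18348.

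Depth estimated from the values was 14950000 to 25450000 fragments per tumor, and 16108 to 18212 genes were above 0. Levels are given as FPKM, fragments per kilobase of transcript relative to the library total, which allows genes to be compared per length. The mean log2(FPKM + 1) of a T and NK cell list was 2.67 to 3.27 in the 8 Balb/c tumors and 0.0974 to 0.323 in the 10 NSG tumors, so the host labels fitted. Of bone markers, Col1a1 was at 56.6 to 499 FPKM and the osteoblast factor Runx2 at 3.54 to 11.1 FPKM in every tumor. The other bone markers were low, with Sp7 at or below 0.195 FPKM and Alpl at or below 0.662 FPKM. Bglap, the product of mature osteoblasts, was at or below 0.431 FPKM. Atrx itself was at 17.6 ± 7.12 FPKM in Balb/c ATRX-CT and 14.0 ± 6.54 FPKM in Balb/c ATRX-KD tumors (SD, n = 4 each), and at 17.6 ± 4.99 and 10.2 ± 3.47 FPKM in the NSG groups (SD, n = 5 each). Neither difference passed the limma test (adjusted p = 0.999 and 0.0610). The study had reported loss of ATRX protein in the K7M2 cells by western blot. Bulk tumor RNA also holds Atrx of host cells, and their share was not measured. Atrx stood above its host's control median in 3 tumors labelled ATRX-KD (21.5 FPKM in mouse 56, 17.3 FPKM in mouse 60 and 16.4 FPKM in mouse 27). Group names below are those of the labels, and the shRNA differences of the members are also given without these 3 tumors.

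The 4 clustered members were all highest in Balb/c ATRX-CT tumors and low in the other 3 groups. Mrgprb1, the most abundant of them, was at 6.40, 5.57, 2.27 and 3.25 FPKM in the Balb/c ATRX-CT tumors of mice 41, 43, 44 and 45. In the Balb/c ATRX-KD tumors of mice 56, 58, 59 and 60 it was at 0.865, 1.07, 0.650 and 1.11 FPKM. The groups did not overlap, and the mean was 4.74-fold lower with Atrx shRNA (4.37 ± 1.94 against 0.923 ± 0.211 FPKM, SD, n = 4 each). Mrgprb2, the degranulation receptor, was at 3.63, 2.38, 1.12 and 1.32 FPKM in ATRX-CT and 0.421, 0.551, 0.769 and 0.426 FPKM in ATRX-KD tumors in the same order of mice. This was a 3.89-fold lower mean (2.11 ± 1.16 against 0.542 ± 0.163 FPKM), again with no overlap. Mrgprx2 was at 1.30, 0.871, 0.585 and 0.70 FPKM in ATRX-CT and 0.110, 0.137, 0.228 and 0.194 FPKM in ATRX-KD tumors. Its mean was 5.17-fold lower (0.865 ± 0.316 against 0.167 ± 0.0535 FPKM), so the relative size was close to that of Mrgprb1 at a level several times lower.

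Mrgprx1 was at 1.35, 0.901, 0.424 and 0.525 FPKM in Balb/c ATRX-CT tumors. Among the Balb/c ATRX-KD tumors it was at 0.162 and 0.188 FPKM in mice 56 and 58 and listed at 0 in mice 59 and 60. The groups did not overlap, but a fold is not given because a 0 in these files can be an estimate that failed. By tumor, the order of all 4 genes in the control group put mouse 41 first and mouse 43 next, and mouse 44 was lowest for each of them.

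On the log2(FPKM + 1) scale, which understates the change of low genes, the ATRX-KD minus ATRX-CT difference in Balb/c hosts was -1.41 for Mrgprb1, -0.95 for Mrgprb2, -0.70 for Mrgprx1 and -0.66 for Mrgprx2. Leaving out the ATRX-KD tumors of mice 56 and 60 gave -1.47, -0.84, -0.70 and -0.64. All 5 members passed the filter of a mean of at least 0.1 FPKM here, and 4 of them were lower in ATRX-KD tumors with no overlap between groups, against 1.93% of the 14701 genes tested. Since this contrast chose the 4 genes, nothing is read from that share. By the limma call (adjusted p below 0.05 and at least 2-fold), 0.0068% of the genes were lower in Balb/c ATRX-KD tumors, which is 1 gene, and 0% were higher, at an unadjusted p below 0.05 for 609 genes.

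**Figure D1:**
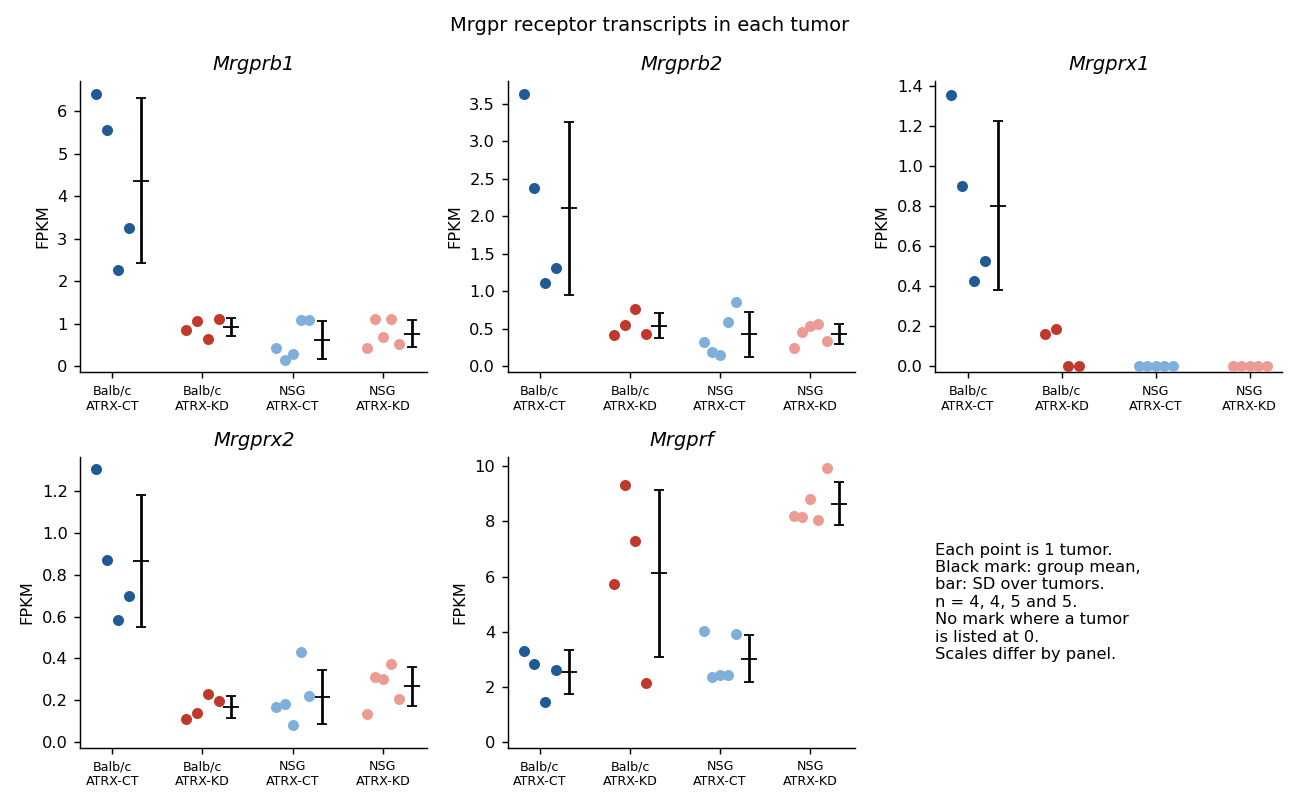
FPKM of each of the 5 receptor genes (1 panel each, linear axes with their own scales) in the tumors of the 4 groups. Points are tumors, black marks are group means and bars are SD (n = 4, 4, 5 and 5), left out where a tumor is listed at 0. Mrgprb1, Mrgprb2, Mrgprx1 and Mrgprx2 stood highest in the 4 Balb/c ATRX-CT tumors, whereas Mrgprf was at 8.07 to 9.92 FPKM in the 5 NSG ATRX-KD tumors.

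In NSG hosts the same knock-down was compared in tumors that had no part in the choice by which the study drew the 4 clustered genes. None of the 3 of them that passed the filter passed either test. Mrgprb1 was at 0.433, 0.150, 0.294, 1.09 and 1.10 FPKM in the ATRX-CT tumors of mice 1 to 5 and at 0.422, 1.10, 0.687, 1.12 and 0.532 FPKM in the ATRX-KD tumors of mice 26 to 30. Both groups therefore spread over nearly the same range, and the log2 difference was 0.16 ± 0.19 (SE, 95% interval -0.25 to 0.57, limma adjusted p = 0.622, two-sided exact permutation p = 0.437, n = 5 each). Mrgprb2 was at 0.329, 0.190, 0.152, 0.595 and 0.863 FPKM in ATRX-CT and 0.244, 0.464, 0.533, 0.562 and 0.331 FPKM in ATRX-KD tumors. The ATRX-KD values lay within the range of the controls, with a log2 difference of 0.02 ± 0.13 (SE, 95% interval -0.27 to 0.31, limma adjusted p = 0.944, exact permutation p = 0.889). Mrgprx2 was at 0.166, 0.181, 0.0836, 0.431 and 0.222 FPKM in ATRX-CT and 0.136, 0.311, 0.303, 0.375 and 0.205 FPKM in ATRX-KD tumors. Its groups overlapped too, with a log2 difference of 0.06 ± 0.09 (SE, 95% interval -0.13 to 0.25, limma adjusted p = 0.696, exact permutation p = 0.492). Without mouse 27 the differences were 0.10, 0.0096 and 0.05. The NSG control means on this scale were 0.64, 0.49 and 0.28, so that even complete loss could not have given differences as large as those in Balb/c tumors, and the hosts were not compared in this. Mrgprx1 was listed at 0 in all 10 NSG tumors and could not be tested.

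Mrgprf behaved otherwise. It was at 4.02, 2.36, 2.41, 2.44 and 3.90 FPKM in NSG ATRX-CT tumors and at 8.21, 8.16, 8.83, 8.07 and 9.92 FPKM in NSG ATRX-KD tumors. Every ATRX-KD tumor lay above every control, with a 2.85-fold higher mean (8.64 ± 0.779 against 3.03 ± 0.853 FPKM, SD, n = 5 each). The log2 difference was 1.28 ± 0.14 (SE, 95% interval 0.97 to 1.59, limma adjusted p = 0.00330 over all genes tested). Since Mrgprf was added with these values in view, this p is a description and not an independent test. Without mouse 27 the difference was 1.30. Of the 14654 genes tested in NSG tumors, 0.171% were called higher and 0.293% lower, and 4.36% were higher and 3.14% lower with no overlap. Mrgprf was among the 25 genes called higher, and nothing is read from that because of how it was added.

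In Balb/c tumors Mrgprf was at 3.31, 2.82, 1.45 and 2.62 FPKM with the control shRNA and at 5.74, 9.31, 7.29 and 2.12 FPKM with Atrx shRNA. Mice 56, 58 and 59 lay above all controls and mouse 60 among them. The mean was 2.40-fold higher (6.12 ± 3.04 against 2.55 ± 0.789 FPKM), with a log2 difference of 0.91, and 1.25% of all genes were higher with no overlap in this contrast, a count that Mrgprf did not join. Without mice 56 and 60 the difference was 1.41. Mouse 60 also had the highest mean log2(FPKM + 1) of a keratinocyte list in its group, 1.12 against 0.274 in the lowest, and the part of that in its Mrgprf value was not tested.

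Between hosts, the control tumors carried the contrast. With the control shRNA, the mean of Mrgprb1 was 7.14-fold, of Mrgprb2 4.96-fold and of Mrgprx2 3.99-fold higher in Balb/c than in NSG hosts, and Mrgprx1 was detected in 4 of 4 Balb/c tumors and listed at 0 in 5 of 5 NSG tumors. All 4 were higher in Balb/c with no overlap, against 4.72% of the 14828 genes tested. Mrgprf overlapped between hosts (2.55 ± 0.789 against 3.03 ± 0.853 FPKM). With Atrx shRNA, all 5 genes overlapped between hosts, and 5.08% of the 14669 genes tested were higher and 3.05% lower in Balb/c tumors with no overlap. Here the means of Mrgprb1 were 0.923 and 0.773 FPKM, those of Mrgprb2 0.542 and 0.427 FPKM and those of Mrgprx2 0.167 and 0.266 FPKM in Balb/c and NSG hosts. These host values are a description, because the Balb/c tumors chose the genes, and strain background and lymphocytes differ together between the hosts.

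Mrgprb1, Mrgprb2, Mrgprx1 and Mrgprx2 were high together in the Balb/c ATRX-CT tumors, which their choice from the Balb/c contrast builds in. Over the 18 tumors, Pearson's r of log2(FPKM + 1) was 0.888 to 0.957 for the 6 pairs, and -0.357 to -0.287 between each of them and Mrgprf. Spearman's rank correlation was lower for the 6 pairs, at 0.479 (Mrgprx1 with Mrgprx2) to 0.862 (Mrgprb1 with Mrgprb2). Mrgprx1 was listed at 0 in 12 of the tumors and could follow no other gene there. The points of the 18 tumors share their libraries, and the 2 hosts and groups fall into clusters. Within the 10 NSG tumors, r was 0.884 for Mrgprb1 with Mrgprb2, 0.799 for Mrgprb1 with Mrgprx2 and 0.691 for Mrgprb2 with Mrgprx2. The FPKM of Mrgprx1 was 37.3% to 39.9% of that of Mrgprb2 in the 4 Balb/c ATRX-CT tumors and 38.6% and 34.2% of it in mice 56 and 58. It was 0% in the other 12 tumors. At the ratio of 38.0% of the control group, the Mrgprb2 level of the 10 NSG tumors would correspond to 32.2 fragments of Mrgprx1 in all, where the files hold 0, and that of the 4 Balb/c ATRX-KD tumors to 16.2 fragments, where the files hold 7.18. These fragment numbers are estimates from depth and transcript length.

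By likeness of pattern, Slc18a2 was among the nearest 5 genes of all 4 clustered members. For Mrgprb1 the nearest were Slc18a2 (r = 0.948 over 18 tumors), the vesicle transporter that loads histamine and serotonin, the tryptases Tpsb2 (0.926) and Tpsab1 (0.918), Ms4a2 (0.904), the beta chain of the high-affinity IgE receptor, and Cyp11a1 (0.881), which starts steroid synthesis. Mrgprb2 was nearest to Slc18a2 (0.937), Tpsb2 (0.890), Cd200r3 (0.888), Cobl (0.864) and Apoc4-apoc2 (0.856). Mrgprx2 was nearest to Slc18a2 (0.926), Tpsb2 (0.902), Fam178b (0.898), Speer4e (0.877) and Mcpt2 (0.863). Mrgprx1 was nearest to Cobl (0.966), Slc18a2 (0.893), Tpsab1 (0.890), Apoc4-apoc2 (0.887) and Cited4 (0.878), some of them as near to 0 outside the control group as Mrgprx1 itself. Genes had to average 0.1 FPKM over the 18 tumors. Fam178b, Speer4e, Cobl and Apoc4-apoc2 reached this only through the Balb/c ATRX-CT tumors, with means of at most 0.0865 FPKM in the other groups. Their high r with members chosen as higher in that group was thus built in. The other genes nearest to the 4 clustered members also had their highest group mean there, so their r over 18 tumors was built in to a part. Spearman's rank correlation with Mrgprb2 was 0.787 to 0.845 for Slc18a2, Tpsb2 and Cd200r3, 0.391 for Cobl and 0.104 for Apoc4-apoc2. Within the NSG tumors alone, Tpsb2 kept r = 0.957 with Mrgprb1 and 0.927 with Mrgprb2 and had 0.737 with Mrgprx2, whereas Cobl had -0.366 with Mrgprb2. There Slc18a2 had 0.862 with Mrgprb1, 0.776 with Mrgprb2 and 0.629 with Mrgprx2, and Tpsab1 had 0.739 with Mrgprb1. Mrgprf was nearest to Kdelr3 (0.899), a receptor that returns proteins to the endoplasmic reticulum, Agpat4 (0.880), an acyltransferase of phospholipid synthesis, Cfap74 (0.880), a cilium gene, Bok (0.866), a BCL2 family member, and Prr7 (0.864), and these 5 also had r of 0.875 to 0.932 within NSG tumors.

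Mast cell genes were set beside the receptors, from a list of 30 that was chosen with results of these tumors known. In Balb/c tumors 28 were tested, of which 23 had a difference below 0 and 12 were lower in ATRX-KD with no overlap (1.93% of all genes), and the median difference was -0.20 against -0.0032 for all genes. Mcpt2, a mucosal mast cell protease, was the 1 gene called (2.13 ± 0.553 against 0.0993 ± 0.0720 FPKM, limma adjusted p = 0.0226). That call held in 2 of the 8 fits that left out 1 tumor (mouse 43 or 45) and was lost in the other 6. It was also lost without the ATRX-KD tumors of mice 56 and 60 together, with no filter, and when genes had to average 1 FPKM. In NSG tumors 27 were tested and none was called, with a median difference of 0.13 against -0.0014 for all genes, and 3853 of all genes had an unadjusted p below 0.05. The genes of highest mean level on the list, Il1rl1 (the IL-33 receptor), Fcer1g (the gamma chain of Fc receptors) and Srgn (the granule proteoglycan serglycin), are also made by other cells. Their Balb/c differences were 0.37, 0.0036 and -0.14.

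Of 10 mast cell markers, 7 were lower with no overlap in Balb/c ATRX-KD than in ATRX-CT tumors, against 1.93% of all genes. These were Cpa3, Fcer1a, Ms4a2, Tpsb2, Tpsab1, Cma1 and Mcpt4, and 3 were not separated (Kit, Hdc and Gata2). The study had named Tpsb2 and Ms4a2 among its genes lower in this same contrast, so nothing is read from that share. Cpa3, the granule carboxypeptidase, was at 64.0, 44.6, 26.7 and 22.9 FPKM in ATRX-CT and 7.84, 9.89, 7.11 and 15.0 FPKM in ATRX-KD tumors. Kit, the receptor for stem cell factor, was at 5.81, 6.30, 2.62 and 3.88 FPKM and at 7.47, 3.48, 2.05 and 4.12 FPKM in the same groups. Among these markers, the separation of the receptors was thus shared by the granule proteases and by the IgE receptor genes Fcer1a and Ms4a2. It was not shared by Kit, Hdc (histamine synthesis) or the transcription factor Gata2. On the longer mast cell list, the proteases Mcpt1, Tpsg1 and Cma2, all at low levels, overlapped between the Balb/c groups. Slc18a2, Hs6st2 and Tph1, which are not proteases, were lower with no overlap. From bulk RNA alone, fewer cells of a type and less RNA of these genes per cell cannot be told apart. The study also stained tryptase in mouse tumors that it had sequenced, and reported a lower share of stained cells with Atrx shRNA. The part of this in the RNA levels was not tested here. In NSG tumors Gata2 was the 1 marker that did not overlap (0.946 ± 0.179 against 1.79 ± 0.213 FPKM, log2 difference 0.52, limma adjusted p = 0.0134, under 2-fold). Of the basophil proteases, Mcpt8 was at 0.0651 to 2.80 FPKM and Prss34 at or below 0.113 FPKM. The mean of Mcpt8 over the 18 tumors was 1.62 FPKM, near that of Mrgprb1 (1.56 FPKM). No gene of the basophil list was called in either host. Cd200r3, on the basophil and mast cell lists, was lower with no overlap in Balb/c ATRX-KD tumors, 1 of 6 basophil genes tested. Its means were 1.19 ± 0.272 FPKM in ATRX-CT and 0.372 ± 0.113 FPKM in ATRX-KD tumors (SD, limma adjusted p = 0.286).

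**Figure D2:**
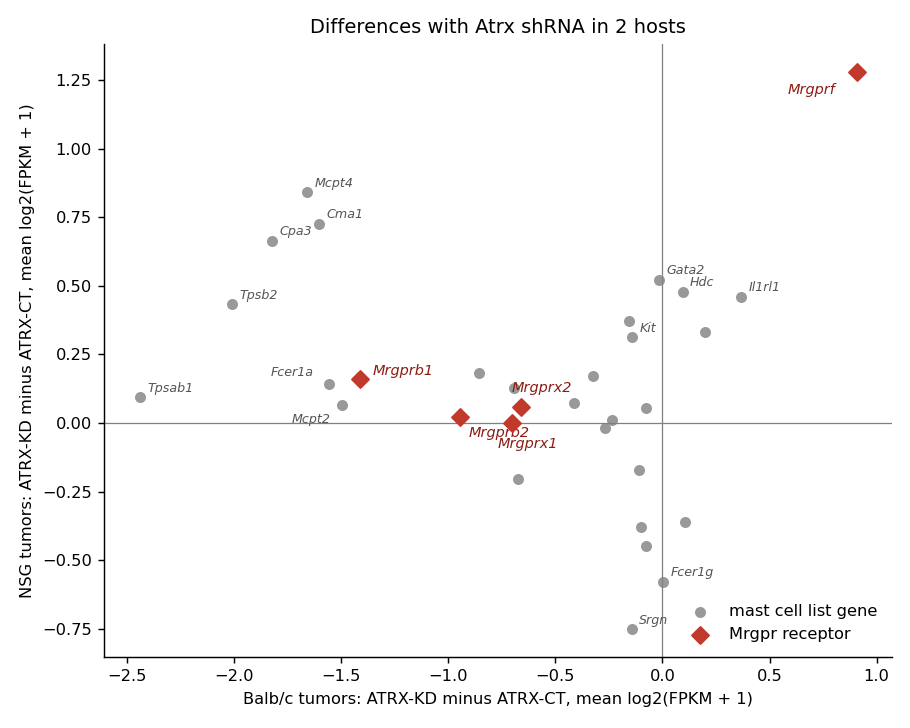
Difference of mean log2(FPKM + 1), ATRX-KD minus ATRX-CT, in Balb/c tumors (horizontal) and NSG tumors (vertical). Each grey point is a gene of the mast cell list tested in both hosts and each red diamond a receptor. Mrgprb1, Mrgprb2, Mrgprx1 and Mrgprx2 lie left of 0, with vertical values of 0.16, 0.02, 0 and 0.06, of which that of Mrgprx1 is 0 because it was listed at 0 in all 10 NSG tumors. Of the proteases left of 0, Tpsab1 and Mcpt2 lie at 0.09 and 0.07 vertically and Tpsb2, Cpa3, Cma1 and Mcpt4 at 0.43 to 0.84. Mrgprf lies at 0.91 and 1.28, right of and above every gene of the list.

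The receptors were also set against mast cell genes of the same tumor, and the outcome depended on the gene chosen. The denominators Cpa3, Tpsb2 and Mcpt4 were chosen after the values were seen, and all 3 are among the 7 markers that were themselves lower in Balb/c ATRX-KD tumors. Mrgprb1 was at 11.3% ± 2.55 of the Cpa3 FPKM in Balb/c ATRX-CT and 9.60% ± 1.67 in Balb/c ATRX-KD tumors (SD, n = 4 each), ranges that overlapped. In NSG tumors it was at 5.03% ± 0.916 with the control shRNA and 4.67% ± 1.30 with Atrx shRNA (SD, n = 5 each). All 8 Balb/c tumors (7.43% to 14.2%) lay above all 10 NSG tumors (3.33% to 6.56%) in this ratio. The hosts also did not overlap for Mrgprb1 over Tpsb2 (5.78% to 9.50% against 2.64% to 5.08%), but they did over Mcpt4 (4.49% to 11.6% against 2.91% to 6.85%). Over Tpsab1, which was itself far lower in NSG tumors, the hosts overlapped with the higher values in NSG tumors (4.28% to 12.1% in Balb/c against 5.44% to 31.1% in NSG). Over all 10 markers, Mrgprb1 was higher in Balb/c with no overlap for 3 (Cpa3, Tpsb2 and Cma1) and overlapped for 7. Between the Balb/c groups, Mrgprb1 overlapped over the 7 markers named above and was lower in ATRX-KD with no overlap over Kit, Hdc and Gata2. Over Kit it was at 83.7% to 110% in ATRX-CT and 11.6% to 31.6% in ATRX-KD tumors. Mrgprb2 was at 5.23% ± 0.728, 6.15% ± 3.35, 3.76% ± 0.996 and 2.58% ± 0.240 of Cpa3 in Balb/c ATRX-CT, Balb/c ATRX-KD, NSG ATRX-CT and NSG ATRX-KD tumors, and Mrgprx2 at 2.31% ± 0.509, 1.82% ± 0.923, 2.35% ± 1.61 and 1.60% ± 0.269. Both overlapped between hosts.

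The ratios of Mrgprb1, Mrgprb2 and Mrgprx2 to each protease were compared between the NSG groups, 9 comparisons in all. The largest difference was that of Mrgprb2 over Mcpt4, with a geometric mean of 3.34% in ATRX-CT and 2.06% in ATRX-KD tumors (log2 difference -0.70, two-sided exact permutation p = 0.00794, Benjamini-Hochberg adjusted p = 0.0714). The NSG groups did not overlap for Mrgprb2 over Mcpt4 (2.83% to 4.59% in ATRX-CT and 1.79% to 2.26% in ATRX-KD tumors). The mean of Mrgprb2 itself was 0.426 FPKM in NSG ATRX-CT and 0.427 FPKM in NSG ATRX-KD tumors. That of the denominator Mcpt4 was 13.9 and 20.4 FPKM (log2 difference 0.84, limma adjusted p = 0.269). Its p of 0.00794 was the smallest that the exact permutation test could give with these group sizes. Over 9 comparisons, 1 ratio alone at that p could not fall below 0.05 after adjustment, so the adjusted p cannot decide for it. The other 8 did not pass after adjustment (adjusted p of 0.179 to 0.841, exact permutation test).

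**Figure D3:**
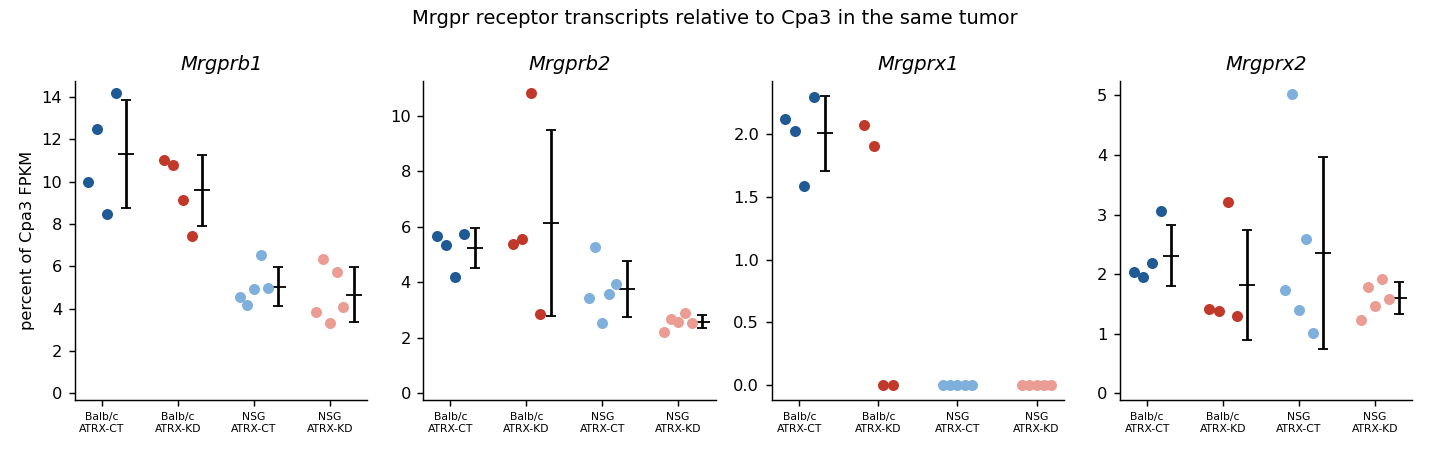
FPKM of Mrgprb1, Mrgprb2, Mrgprx1 and Mrgprx2 as percent of the Cpa3 FPKM of the same tumor (linear axes with their own scales), by group. Points are tumors, black marks are means and bars are SD (n = 4, 4, 5 and 5), left out where a tumor is at 0. With this denominator Mrgprb1 did not overlap between hosts, at 7.43% or more in Balb/c and 6.56% or less in NSG tumors.

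Of 18 further genes of the family, 15 were in the files and 3 reached a mean of 0.1 FPKM over the 18 tumors. Mrgpre, an orphan receptor, was at 0.417 to 1.08 FPKM with group means of 0.844 and 0.664 FPKM in Balb/c and 0.794 and 0.698 FPKM in NSG hosts, control first. Mrgpra2b was at 0 to 0.633 FPKM and Mrgpra4 at 0 to 0.331 FPKM. None of these 3 was called or separated with the shRNA in either host. The other 12 (Mrgpra1, Mrgpra2a, Mrgpra3, Mrgpra6, Mrgpra9, Mrgprb3, Mrgprb4, Mrgprb8, Mrgprd, Mrgprg, Mrgprh and Mas1) had no value above 0.268 FPKM. Over the 18 tumors the order of mean levels was Mrgprf (5.17 FPKM), Mrgprb1 (1.56 FPKM), Mrgprb2 (0.826 FPKM), Mrgpre (0.750 FPKM), Mrgprx2 (0.363 FPKM), Mrgpra2b (0.218 FPKM), Mrgprx1 (0.197 FPKM) and Mrgpra4 (0.111 FPKM).

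**Figure D4:**
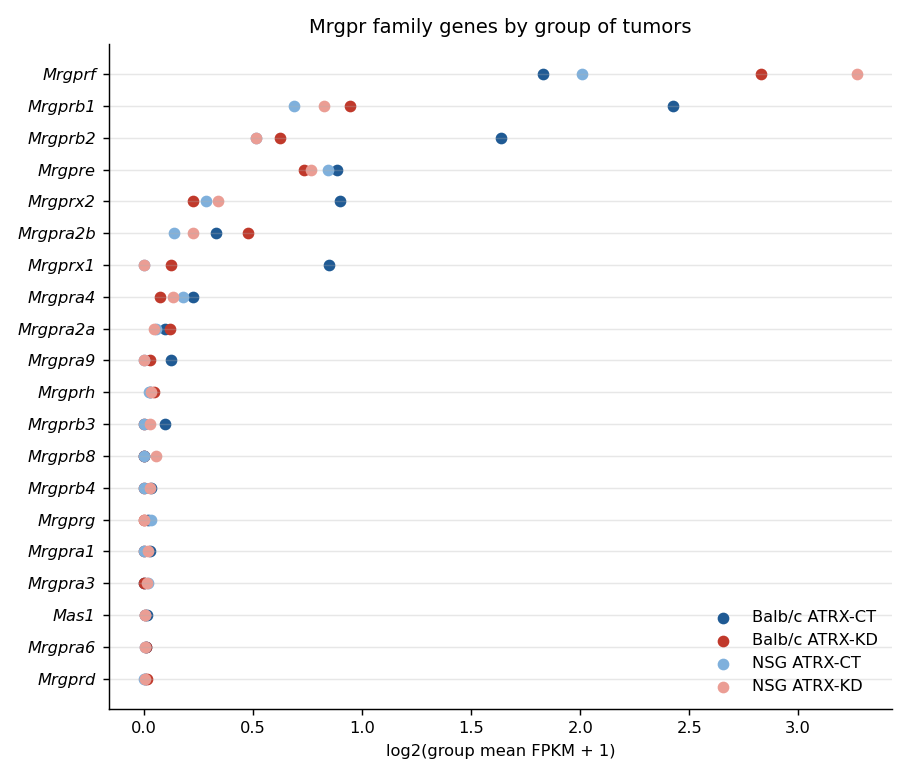
Group mean levels, log2(group mean FPKM + 1), of the 5 members and 15 further family genes, ordered by their mean over 18 tumors. Each point is the mean of a group of 4 or 5 tumors. Mrgprb1, Mrgprb2, Mrgprx1 and Mrgprx2 have 1 group apart, the Balb/c control tumors, and Mrgprf is highest in both ATRX-KD groups, while 12 genes lie near 0.

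No other gene beside the members on the chromosome was called in either host. Within the cluster, Mrgprb8, Mrgprb4 and Mrgprb3 had means of at most 0.0671 FPKM in any group. Zdhhc13, a palmitoyltransferase 231 kb beyond Mrgprb2, was at 16.5 and 14.0 FPKM in Balb/c and 14.2 and 15.6 FPKM in NSG tumors, control first. Its Balb/c groups did not overlap either, but the log2 difference was -0.21. Mrgprf lies 16.9 kb from Tpcn2, a lysosomal channel, which had means of 8.54 and 12.2 FPKM in Balb/c and 13.9 and 10.9 FPKM in NSG tumors. The Balb/c groups of Tpcn2 did not overlap, with a log2 difference of 0.46. Its NSG difference was -0.35 (limma adjusted p = 0.117), opposite in sign to that of Mrgprf. Mrgprd, 5.28 kb on the other side and a receptor of pain neurons, was at or below 0.0179 FPKM.

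Genes that feed or carry the signal of these receptors were counted in the same way. Among 20 genes for receptor agonist precursors and their processing, 8 were tested in Balb/c and 10 in NSG tumors, and none was called. Those of highest level were Cst3, Cpe and Ece1. Cpe, a carboxypeptidase that trims neuropeptides, was at 28.8 and 41.6 FPKM in Balb/c and 25.4 and 41.9 FPKM in NSG tumors, control first (NSG log2 difference 0.72, limma adjusted p = 0.0459, under 2-fold). Penk, the enkephalin precursor, named after its values were seen, was at 1.11 ± 0.247 and 3.00 ± 1.29 FPKM in NSG ATRX-CT and ATRX-KD tumors with no overlap (log2 difference 0.86, limma adjusted p = 0.0349), and overlapped in Balb/c tumors (3.13 and 5.24 FPKM). Of 31 measured genes for signalling below the receptors, none was called in either host, with medians of -0.12 and -0.07 in Balb/c and NSG tumors. The most abundant of them, the G protein subunit Gnai2, differed by -0.11 in Balb/c and 0.08 in NSG tumors. Of 14 measured genes for mast cell growth and chemotaxis, 13 were tested in each host and none was called. Cxcl12, a chemokine that draws CXCR4-bearing cells, was lower with no overlap in Balb/c ATRX-KD tumors (170 ± 20.3 against 97.5 ± 2.26 FPKM, limma adjusted p = 0.262), while Ccl2 and Ccl5 overlapped.

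Lists of other cells that carry these receptors were also read. For nociceptive neurons and glia, 8 of 18 genes were tested in each host. Scn10a, which defines pain neurons, was at or below 0.00880 FPKM and Trpv1 at or below 0.0611 FPKM in every tumor. Prph was at or below 0.209 FPKM, whereas Calca was at 0 to 3.30 FPKM with a median of 0.0815 FPKM. Nppb and Calcb of this list had means of 3.73 and 1.15 FPKM over the 18 tumors. Trpa1, an irritant channel, was called higher in NSG ATRX-KD tumors (1.58 ± 0.247 against 4.16 ± 0.564 FPKM, log2 difference 1.00, limma adjusted p = 0.00247), and its Balb/c groups overlapped. For smooth muscle, in which Mrgprf has been described, none of 13 tested genes was called in either host, with medians of -0.05 and 0.02. The levels of the markers of this cell type differed widely. Myh11 and Cnn1 were at or below 0.392 and 0.127 FPKM, but Acta2 was at 7.57 to 56.4 FPKM. Tagln was at 0.808 to 7.03 FPKM and Des at 1.24 to 31.4 FPKM. Smtn, Acta2 and Mylk, the highest of that list, had NSG differences of 0.37, -0.05 and 0.02.

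In lists of other tissues no gene was called in either host, and the list means of the shRNA groups overlapped. Of the adipocyte list, 9 of 9 tested genes were above 0 in Balb/c and 9 of 10 in NSG ATRX-KD tumors (medians of 0.64 and 0.76), and the list's mean ranged from 1.29 to 3.85 over the NSG ATRX-KD tumors and from 1.51 to 2.05 over their controls. Its part in the Mrgprf difference was not tested. All 12 dermal fibroblast genes had differences above 0 in NSG tumors (median 0.30), and 7 of 12 did in Balb/c tumors (median 0.06). All 10 skeletal muscle genes and all 9 keratinocyte genes tested had differences below 0 in Balb/c tumors (medians of -0.71 and -0.51), with wide ranges of the list means (0.206 to 2.59 and 0.274 to 2.83), and the part of skin in the mast cell receptor levels was not tested. The macrophage list had medians of -0.14 and -0.48 in Balb/c and NSG tumors and none of its 10 genes was called.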

How the data were processed

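RNA of 18 K7M2 tumors had been sequenced as 75-base paired reads. Per the study's methods, the authors aligned reads to mm10 with STAR 2.6.0c, removed low-quality and duplicate reads, and quantified RefSeq genes with Cufflinks 2.2.1. The deposited values are log2(FPKM + 1), with no scaling between libraries named. The base is not stated in the files. Base 2 was taken because it gave a sum of FPKM times length of 1.10 to 1.13 times the total that FPKM fixes, against 8.45 to 11.2 for the natural log. The 92 spike-ins were left out. Depth was estimated from the spacing of low values, where 34.5% to 42.1% of values lay within 0.1 of a whole fragment (20% by chance), so whole reads were not recovered and no count test was run. Fragments of 160 bases were assumed.

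Groups came from the sample titles. Genes averaging 0.1 FPKM or more over the compared tumors were tested with limma 3.58.1 (trended prior, R 4.3.3) on log2(FPKM + 1), with Benjamini-Hochberg adjustment over all genes tested, after the code was tested on simulated data. Single members were compared in NSG tumors with a two-sided exact permutation test over 252 arrangements. A call needed an adjusted p below 0.05 and a 2-fold difference. List genes were named if called or among the 3 of highest mean level, together with the fixed markers. Some genes that this rule would name are not reported here. Nearest genes were the 5 of highest Pearson r, and neighbours the nearest 2 on each side. Other genes named were chosen after their values were seen. Members and lists were chosen with earlier results of these data known. Alternatives changed the pseudocount, scaling, filter, library weights, fold criterion, fit and tumors included. Promoters came from RefSeq on GRCm38.p6, and motifs and alignments were found with Python 3.11.15. The promoter of Mrgprf was not analysed here.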

Additional observations from a re-analysis of the deposited data

How the results depend on the processing

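The NSG difference of Mrgprf, which was chosen with these values in view, was called under every alternative run (1.21 to 1.52, limma adjusted p of 0.000195 to 0.00952, and 1.22 to 1.37 leaving out 1 tumor at a time, limma adjusted p of 0.00359 to 0.0150). Mrgprb1, Mrgprb2 and Mrgprx2 stayed uncalled in NSG tumors under every alternative run. With a pseudocount of 0.1 the Balb/c differences were -2.04, -1.67, -2.33 and -1.82 for Mrgprb1, Mrgprb2, Mrgprx1 and Mrgprx2, by the construction of the scale. Leaving out 1 tumor at a time, they ranged over -1.63 to -1.23, -1.11 to -0.73, -0.81 to -0.57 and -0.74 to -0.56, and that of Mrgprf over 0.69 to 1.26.

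The number of genes called was less stable. In Balb/c tumors 1 gene was called, 0 with no filter, 0 when genes had to average 1 FPKM, 9 in 1 fit of all 4 groups, 15 with library weights, 3 without mice 56 and 60, and 0 to 2 leaving out 1 tumor at a time, with 2 without mouse 43. In NSG tumors 68 were called, 226 with a pseudocount of 0.1, 201 with library weights, 994 with no fold criterion, and 27 to 124 leaving out 1 tumor at a time, with 27 without mouse 30, 34 without mouse 28, 39 without mouse 4, 44 without mouse 29 and 124 without mouse 26. The causes were not tested. No paired analysis was possible because the groups share no mouse numbers. Depth limits Mrgprx1, for which 3 fragments correspond to 0.115 to 0.197 FPKM in the NSG tumors.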
